A study of Mus musculus with 16 samples.

Results

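In all, 9 genes of T, NK and B lymphocytes were followed in dorsal root ganglion cells: Cd3d, Cd3e, Cd3g, Cd2, Lck and Nkg7 of T and NK cells, and Cd79a, Cd79b and Ms4a1 of B cells. These 9 genes of the 22609 in the count tables were chosen by name, as possible sources of lymphotoxin transcripts, and their counts scaled to library size (CPM) are given in all 16 libraries. RNA was sequenced from cells sorted out of the lumbar ganglia L3 to L5 of male mice aged 8 to 16 weeks, 4 libraries in each of 4 groups. All mice carried loxP-flanked copies of Ltbr, which encodes the lymphotoxin beta receptor, either alone (LTβR-fl/fl, here fl/fl) or with a Nav1.8 Cre recombinase (the label CKO), which is active in nociceptive sensory neurons. Each genotype received paclitaxel (PTX), a microtubule-stabilising chemotherapy drug, as 3 intraperitoneal injections of 6 mg per kg spaced 2 days apart, or vehicle, which the treatment label gives as water. Counted from the final PTX dose, a fluorescent wheat germ agglutinin tracer was put into the paw at 16 days and ganglia were taken at 18 days, and tracer-positive cells were sorted by flow cytometry. The treatment text of every library, vehicle included, names PTX, and the design text gives 3 mice per group where 4 libraries carry each label. Separate animals are not named for the libraries of a group, so p-values reflect only the spread among libraries, and that spread may be technical.

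T cells recognise antigen through a receptor that signals through the CD3 chains, with the kinase Lck starting the cascade. B cells signal through the Cd79a and Cd79b chains of their antigen receptor. Lymphocytes are a major source of lymphotoxin alpha and beta, the products of Lta and Ltb, and of LIGHT, the product of Tnfsf14, which bind the lymphotoxin beta receptor and activate the non-canonical arm of NF-kB.

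The libraries held 7906504 to 11668007 gene counts, so a gene at 0 counts in a library had an upper limit of 0.247 to 0.383 CPM there (3 counts, counting error only). The library titles carry dates: in each treatment replicates 1 and 2 of both genotypes have the earlier and replicates 3 and 4 the later date, so that date is balanced over genotype and cannot be told apart from treatment. The 4 PTX libraries of the earlier date stood apart from the other 12, and the 9 genes' values are given by date, while group means and the fits of PTX against vehicle pool both dates. Their summed CPM over 15 pan-leukocyte genes was 334 to 1391, against 7150 to 11946 in the later PTX libraries and 7533 to 21723 after vehicle. The 19 neutrophil genes made up 0.0327% to 1.09% of gene counts in the earlier PTX libraries, 5.62% to 12.4% in the later ones and 7.90% to 19.8% after vehicle. Sensory neuron markers were present in all libraries, at 1.32% to 3.18% of gene counts after PTX and 0.140% to 0.828% after vehicle. Ltbr itself was not lower in CKO: it was at 10.6 ± 4.17 CPM (SD, n = 4) in PTX fl/fl and 19.3 ± 9.63 in PTX CKO, and at 47.2 ± 3.74 and 54.6 ± 31.2 after vehicle, with an adjusted p of 1 for both genotype comparisons (edgeR). These counts cover the whole gene in mixed cells and do not check the deleted part alone. In whole populations of sorted cells, fewer cells of a type and less RNA per cell cannot be told apart.

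The sequences before the starts of 3 members are shown. Nkg7 carried most of the counts of the 9 genes, and Cd3d and Cd3g are head-to-head neighbours whose counts were far apart. They are RefSeq sequences of GRCm38.p6, another build than the mm9 used for counting, read 5′ to 3′ on the strand of each gene and ending at the base before the gene. The windows are chr7:43436888-43437137 (+ strand, 250 bases) for Nkg7, chr9:44981536-44981768 (+ strand, 233 bases) for Cd3d and chr9:44980432-44980681 (- strand, 250 bases) for Cd3g. Capitals mark the letters GGAA, the core of motifs bound by ETS factors, on either strand.
Nkg7: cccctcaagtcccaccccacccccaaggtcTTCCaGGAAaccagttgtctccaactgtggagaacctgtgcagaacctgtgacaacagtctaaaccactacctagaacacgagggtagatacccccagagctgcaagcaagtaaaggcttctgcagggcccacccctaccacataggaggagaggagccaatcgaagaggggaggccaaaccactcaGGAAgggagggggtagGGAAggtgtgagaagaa
Cd3d: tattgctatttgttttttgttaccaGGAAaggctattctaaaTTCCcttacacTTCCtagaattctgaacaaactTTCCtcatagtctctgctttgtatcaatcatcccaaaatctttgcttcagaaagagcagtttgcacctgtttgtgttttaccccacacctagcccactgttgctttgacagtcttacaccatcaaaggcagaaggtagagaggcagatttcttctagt
Cd3g: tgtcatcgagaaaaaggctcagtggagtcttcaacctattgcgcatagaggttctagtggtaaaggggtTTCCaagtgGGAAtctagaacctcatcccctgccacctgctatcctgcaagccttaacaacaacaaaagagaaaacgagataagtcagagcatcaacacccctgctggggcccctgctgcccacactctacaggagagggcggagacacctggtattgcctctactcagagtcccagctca
GGAA or its complement occurred 4 times before Nkg7, 4 times before Cd3d and 2 times before Cd3g. It occurred in 93.4% of the 32851 promoter windows of 250 bases, so that its presence does not set these genes apart. RefSeq placed 1337 bases between the starts of Cd3d and Cd3g. A window was found for 6 of the 9 members.

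All 9 genes had a count in at least 1 library, and together they had 4589 counts. The 6 T and NK cell genes made up 4135 of these and the 3 B cell genes 454. Nkg7, a membrane protein of cytotoxic granules, held 64.0% (2937 counts), Lck 14.2% (651), Cd3d 11.5% (528), Cd79b 6.67% (306) and Cd79a 3.20% (147). Which cells the Nkg7 counts came from was not tested. The other 4 genes were near the limit of detection. Cd3e had 8 counts, all in vehicle CKO replicate 3. Cd3g had 8 counts in 3 libraries, 6 of them in PTX CKO replicate 3, and Cd2, an adhesion receptor of T and NK cells, had 3 counts in PTX fl/fl replicates 1 and 2. Ms4a1, which encodes the B cell surface protein CD20, had 1 count, in PTX fl/fl replicate 1. No library had counts for all 9 genes, and each had counts for 2 to 6 of them.

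Per length, over the exons of GENCODE M21 and averaged over the 16 libraries, Nkg7 was at 21.4 CPM per kb, Cd3d at 1.90, Cd79b at 1.46, Lck at 1.33 and Cd79a at 0.670. Cd3e was at 0.0157, Cd3g at 0.0154, Cd2 at 0.00928 and Ms4a1 at 0.000838 CPM per kb. On the same scale Ltb was at 16.7 and Ptprc, which encodes the leukocyte surface phosphatase CD45, at 26.2. Each length joins the exons of all annotated transcripts of a gene, 914 bases for Nkg7, 1516 for Ltb and 18313 for Ptprc. It can exceed that of any single transcript, which lowers the value, so levels of different genes compare only roughly. Without lengths the median over the 16 libraries was 16.8 CPM for Nkg7 and 414 CPM for Ptprc. The 3 CD3 chains, which assemble into 1 receptor complex, were thus not represented alike: 528 of their 544 counts were from Cd3d. In the GENCODE M21 annotation Cd3e overlaps the antisense gene Gm48719 and Ms4a1 the antisense gene 4930526L06Rik. Neither antisense gene is among the genes of the count tables. The strand setting of the counting is not given in the sources used here.

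**Figure D1:**
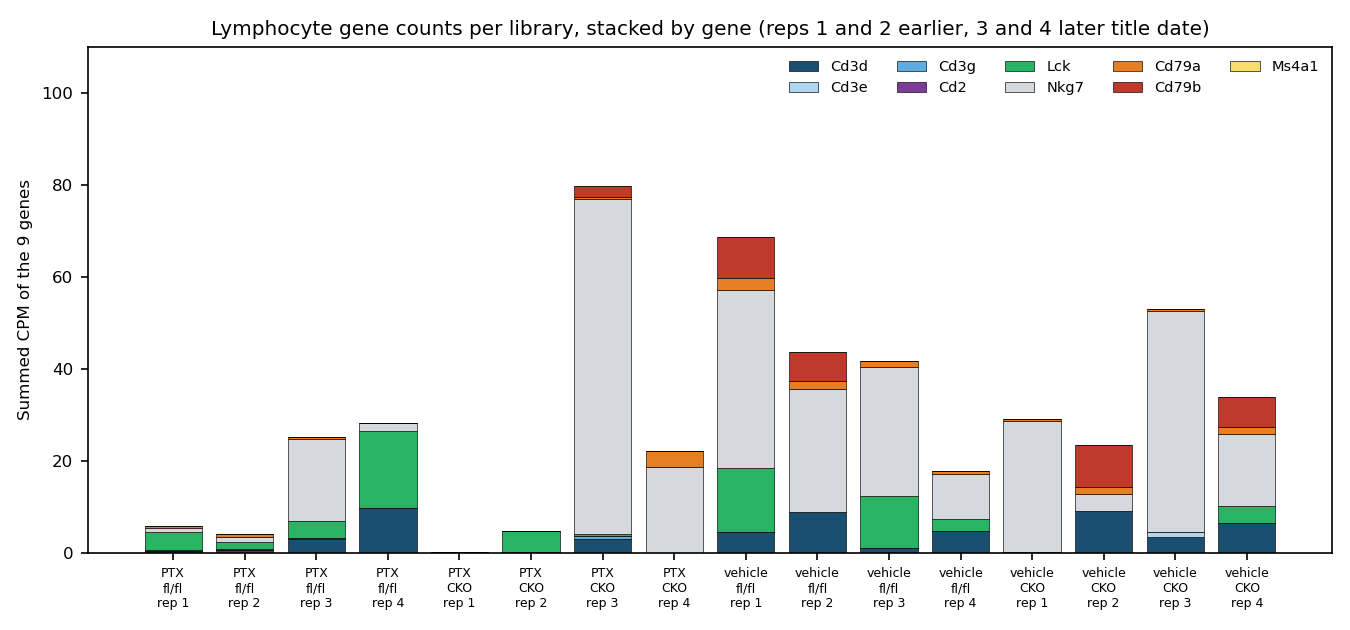
Summed CPM of the 9 lymphocyte genes in each of the 16 libraries, stacked by gene, with the y axis starting at 0. The 4 earlier PTX libraries (replicates 1 and 2) reached 0.197 to 5.81 CPM, and the other 12 reached 17.8 to 79.8 CPM, most of it from Nkg7 in most libraries.

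The sum of the 9 genes was 15.8 ± 12.6 CPM (SD, n = 4) in PTX fl/fl, 26.7 ± 36.6 in PTX CKO, 43.0 ± 20.8 in vehicle fl/fl and 34.9 ± 12.8 in vehicle CKO. Within PTX it was 0.197 to 5.81 CPM at the earlier date and 22.2 to 79.8 CPM at the later date. After vehicle it was 17.8 to 68.7 CPM over both dates. Of the 4 later PTX libraries 3 thus lay within the vehicle range and 1 above it, and the 4 earlier ones lay below it.

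Values below are in the order of replicates 1 to 4, the first pair being of the earlier date. Nkg7 was at 0.996, 1.05, 17.9 and 1.73 CPM in PTX fl/fl and at 0, 0, 72.9 and 18.7 CPM in PTX CKO. It was at 38.8, 26.7, 28.2 and 9.80 CPM in vehicle fl/fl and at 28.5, 3.54, 48.0 and 15.7 CPM in vehicle CKO. The highest library, PTX CKO replicate 3, shared its group with both libraries that had no Nkg7 count, and PTX and vehicle overlapped in each genotype.

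Cd3d, the CD3 delta chain, was at 0.415, 0.615, 3.06 and 9.74 CPM in PTX fl/fl and at 0, 0.190, 3.09 and 0 CPM in PTX CKO. After vehicle it was at 4.48, 8.89, 0.987 and 4.65 CPM in fl/fl and at 0, 9.18, 3.45 and 6.56 CPM in CKO. Every group had at least 1 library under 1 CPM, and all groups overlapped.

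Lck was at 3.98, 1.58, 3.67 and 16.7 CPM in PTX fl/fl and at 0.0984, 4.46, 0.412 and 0 CPM in PTX CKO. In vehicle fl/fl it was at 13.9, 0, 11.3 and 2.66 CPM, and in vehicle CKO at 0.112, 0, 0 and 3.64 CPM. Unlike Nkg7, Lck was counted in all 4 earlier PTX libraries, and in PTX CKO its highest value was of the earlier date. Its group means were higher in fl/fl (6.50 after PTX and 6.95 after vehicle) than in CKO (1.24 and 0.939), a difference that did not pass the test in either treatment.

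Cd79a was counted in 14 libraries but never above 29 counts. It was at 0.249, 0.615, 0.510 and 0 CPM in PTX fl/fl and at 0.0984, 0, 0.412 and 3.46 CPM in PTX CKO. After vehicle it was at 2.62, 1.87, 1.23 and 0.581 CPM in fl/fl and at 0.448, 1.66, 0.511 and 1.35 CPM in CKO. The highest value was in PTX CKO replicate 4, which lay above every vehicle library.

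Cd79b, the partner chain of Cd79a, was counted in only 6 libraries. It was at 8.95 and 6.32 CPM in vehicle fl/fl replicates 1 and 2, at 9.07 and 6.66 CPM in vehicle CKO replicates 2 and 4, and at 2.37 CPM in PTX CKO replicate 3. The sixth library, PTX fl/fl replicate 2, had 1 count (0.0878 CPM), and the other 10 had none. The pair of receptor chains was therefore not detected together in most libraries: PTX CKO replicate 4, highest for Cd79a, had no Cd79b count. Scn4a, the muscle sodium channel gene, lies 2982 bases from Cd79b in RefSeq and had a different pattern, with counts in 7 of the 8 PTX libraries and in none of the 8 vehicle libraries.

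**Figure D2:**
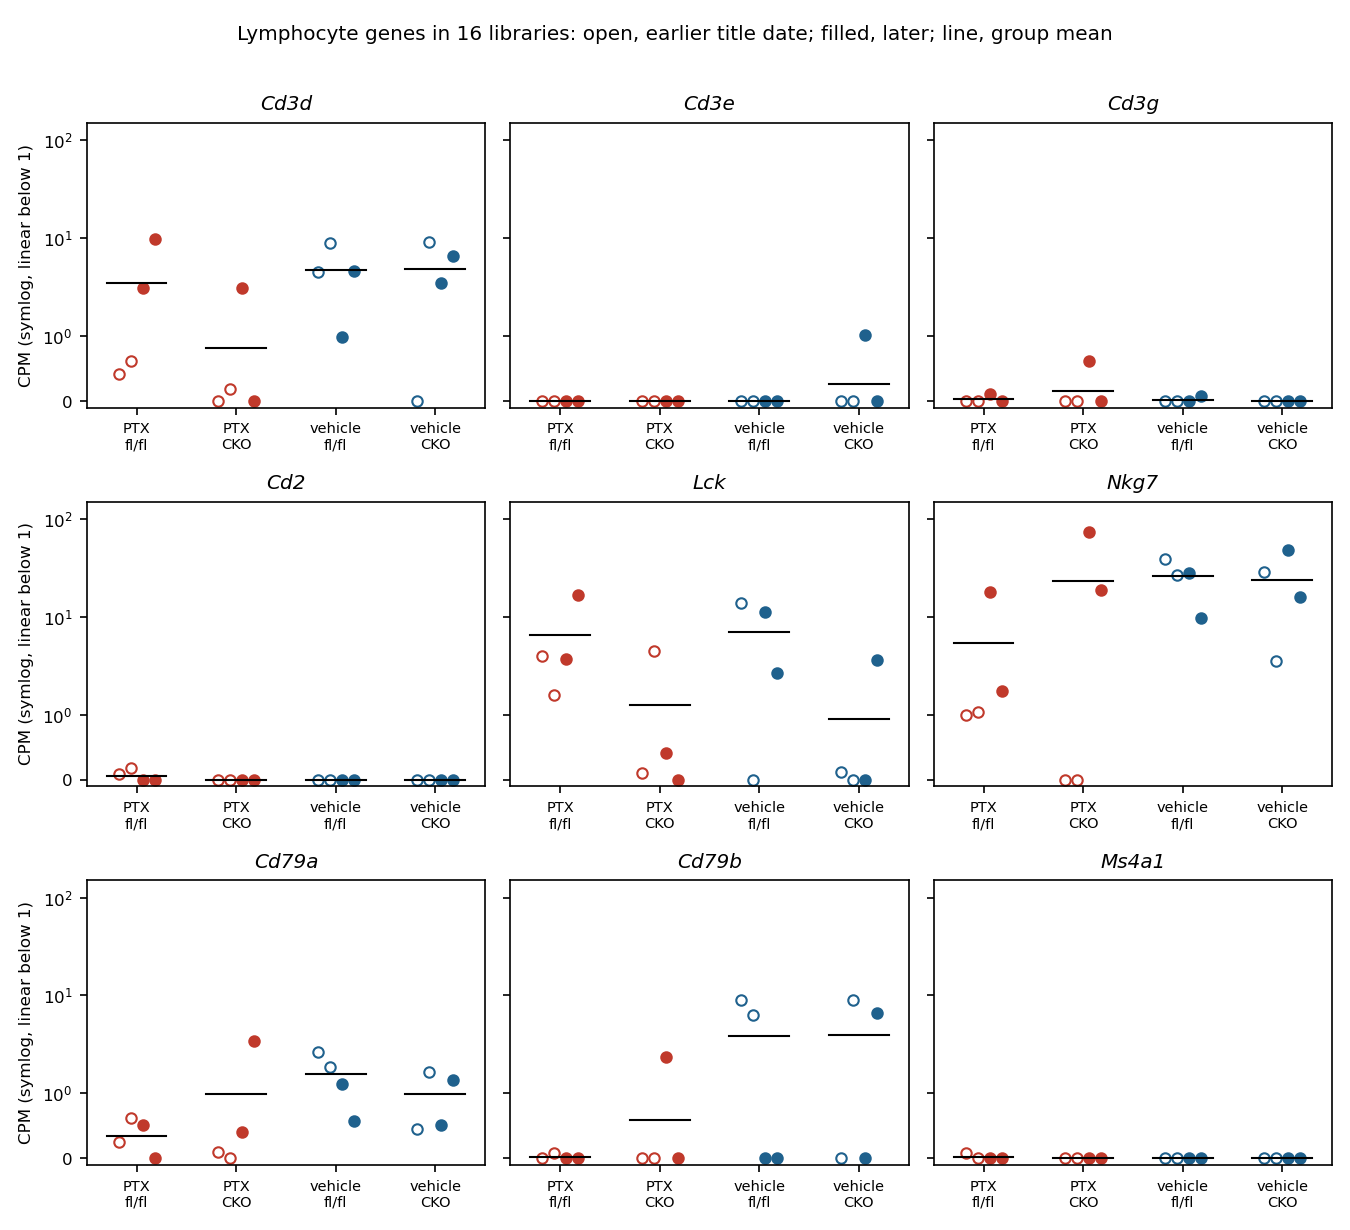
CPM of the 9 lymphocyte genes in each library by group, 1 panel per gene, on an axis that is logarithmic above 1 CPM and linear below. Open points are libraries of the earlier title date, filled points those of the later date, and lines are group means. Nkg7 reached 72.9 CPM, Cd3e, Cd3g, Cd2 and Ms4a1 stayed at or near 0, and all groups overlapped for every gene.

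PTX was compared with vehicle in each genotype, to ask how the drug changes sorted ganglion cells with and without the Cre. Cd3d, Lck, Nkg7, Cd79a and Cd79b passed the filter on low counts, and Cd3e, Cd3g, Cd2 and Ms4a1 did not. In fl/fl, 0 of the 5 tested lymphocyte genes passed an adjusted p of 0.05 (edgeR), beside 4.96% of all 14200 genes tested. In CKO, 0 of the 5 passed, beside 2.58% of all genes. At an unadjusted p of 0.05, 1 lymphocyte gene passed in fl/fl (Cd79b, beside 19.5% of all genes) and 0 in CKO (beside 19.7%). For 0 of the 9 genes did PTX and vehicle libraries lie apart without overlap, beside 18.8% of tested genes in fl/fl and 13.5% in CKO.

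Cd79b had 1 count in PTX fl/fl against 136 in vehicle fl/fl, a ratio of normalised counts of 0.00715 with an exact 95% interval of 0.00018 to 0.0405 for counting error alone. All 136 vehicle counts came from replicates 1 and 2, while replicates 3 and 4 had none. The edgeR estimate was -6.77 ± 2.90 (log2 fold change ± SE), with an unadjusted p of 0.0325 and an adjusted p of 0.204. In CKO the counts were 23 and 146 and the estimate was -2.71 ± 2.39 (edgeR adjusted p 0.572).

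For Nkg7 the log2 fold change was -2.26 ± 1.56 in fl/fl (edgeR adjusted p 0.470) and -0.06 ± 1.49 in CKO (adjusted p 0.989). With limma-voom and quality weights it was -3.95 (adjusted p 0.00297) in fl/fl and -6.14 (adjusted p 0.0179) in CKO, which passed in both. That fit called 5283 of all genes in fl/fl and 2686 in CKO, against 704 and 366 in edgeR, so passing it does not set Nkg7 apart. DESeq2 called no lymphocyte gene in either. Without the 4 earlier PTX libraries the edgeR estimate for Nkg7 in CKO turned to 0.93. For Cd3d the estimates were -0.46 ± 1.71 in fl/fl and -2.53 ± 1.81 in CKO, and for Cd79a -2.16 ± 1.59 and -0.01. For Lck they were -0.10 ± 1.87 and 0.40 ± 1.89. The standard errors ran from 1.49 to 2.90 log2 units, Cd79a in CKO having no usable one, so that changes of several fold could lie within them.

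CKO was compared with fl/fl within each treatment. Under PTX 0 of the 5 lymphocyte genes passed, beside 0% of all genes, and under vehicle 0 of the 5, beside 0.0211% (edgeR). No lymphocyte gene reached an unadjusted p of 0.05 in either, beside 1.87% of all genes under PTX and 4.61% under vehicle, and for 0 of the 9 did the genotypes lie apart (beside 2.06% and 2.49%). Limma-voom and DESeq2 also called none. The estimates under PTX were -2.06 ± 1.78 for Cd3d, -2.37 ± 1.97 for Lck, 2.08 ± 1.55 for Nkg7, 1.49 ± 1.56 for Cd79a and 4.11 ± 2.58 for Cd79b. The sign of some turned with the fit: Nkg7 was at -0.41 with a title date block, and limma-voom put Nkg7 at -2.45 and Cd79a at -1.81. The Cd79b estimate compares 23 counts in 1 CKO library with 1 count in 1 fl/fl library. Under vehicle the largest estimate was that of Lck, -2.87 ± 2.02 (edgeR adjusted p 1). The interaction of genotype and treatment passed for 0 of the 5, beside 0.00704% of all genes, with 0 at an unadjusted p of 0.05 (beside 3.35%).

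**Figure D3:**
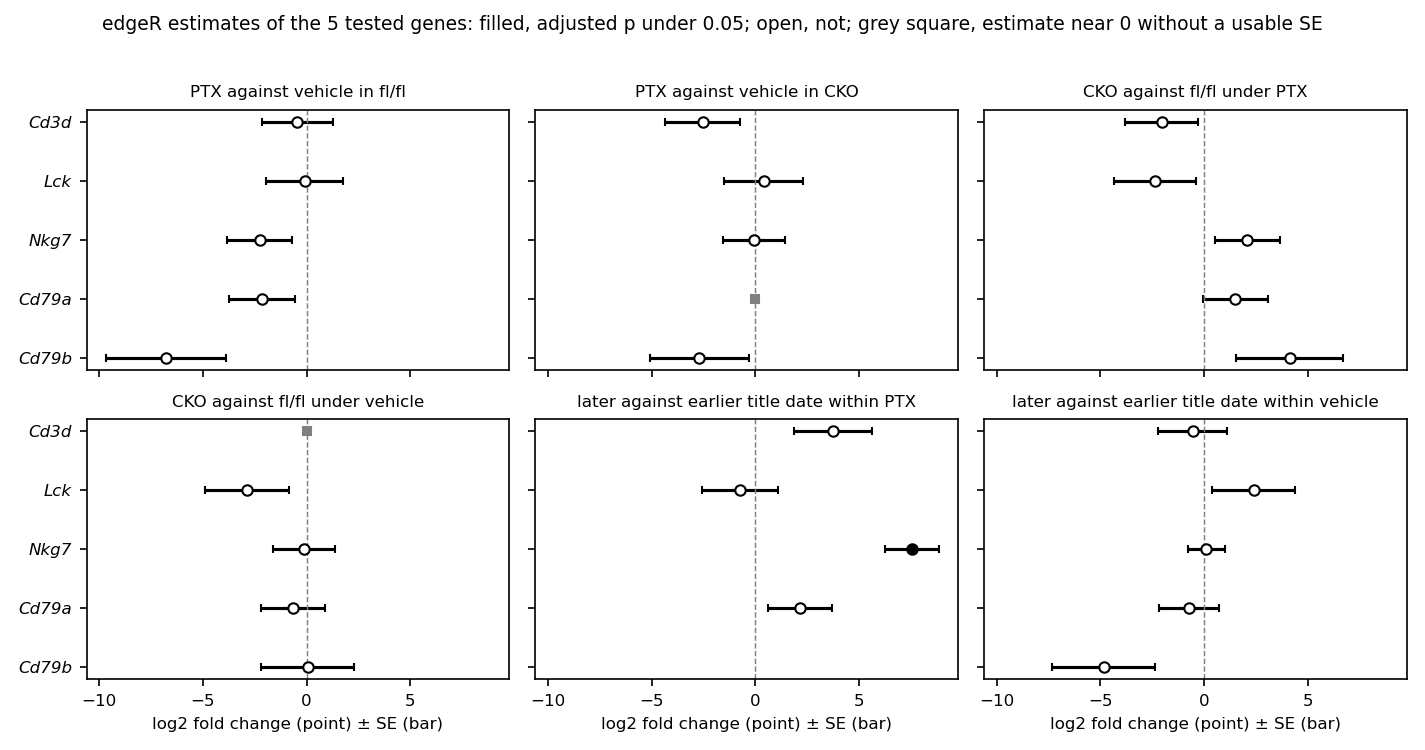
edgeR log2 fold changes (points) with their SE (bars) of the 5 tested lymphocyte genes in 6 comparisons. Filled points have an adjusted p under 0.05, grey squares are estimates near 0 without a usable SE, and no estimate is shown for Cd79b by date within PTX. The only filled point is Nkg7 between the title dates of PTX, at 7.54 ± 1.30.

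Within PTX, the later date was compared with the earlier one, over both genotypes. Nkg7 was higher at the later date, and it alone of the 5 tested lymphocyte genes passed, beside 8.93% of all genes (7.13% higher). At the earlier date it had 12, 12, 0 and 0 counts (fl/fl, then CKO) and at the later date 175, 17, 707 and 157. The ratio of normalised counts, 1056 against 24, was 51.5 (exact 95% interval 34.4 to 80.7 for counting error alone). The 2 dates did not overlap, beside 9.75% of all genes that were higher without overlap. The edgeR estimate was 7.54 ± 1.30 (adjusted p 0.00238). Both earlier CKO libraries were at 0, so this fitted value depends on the prior count, and with the genotypes of a date pooled into 1 mean it was 5.71 ± 1.33 (edgeR adjusted p 0.0106).

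The other lymphocyte genes did not pass between the PTX dates. Cd3d had 14 counts at the earlier and 156 at the later date, with an estimate of 3.73 ± 1.88 (edgeR adjusted p 0.296), and PTX CKO replicate 4 of the later date had none. Cd79a had 11 and 38 counts, with an estimate of 2.13 ± 1.54 (edgeR adjusted p 0.509). Lck had 114 and 205 counts, and its estimate was -0.75 ± 1.83 when the genotypes were kept apart and 1.04 ± 2.04 when they were pooled. Within vehicle 0 of the 5 passed between the dates, beside 0.162% of all genes, and 0 reached an unadjusted p of 0.05, beside 8.41% (edgeR). Nkg7 was at 24.4 ± 14.9 CPM (SD, n = 4) at the earlier and 25.4 ± 16.9 at the later vehicle date. Cd79b had 218 counts at the earlier and 64 at the later vehicle date, with an estimate of -4.85 ± 2.48 (edgeR adjusted p 0.665). Whether the date difference of Nkg7 was larger in PTX than in vehicle was not tested.

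The lymphotoxin receptor ligands were measured in the same libraries. Lta had counts in vehicle fl/fl replicate 1 alone, 31 in all (3.38 CPM). Ltb was counted in all 16 libraries, at 0.581, 2.72, 34.6 and 59.7 CPM in PTX fl/fl and at 0.0984, 0.474, 25.0 and 41.1 CPM in PTX CKO. After vehicle it was at 32.7, 40.4, 18.5 and 33.4 CPM in fl/fl and at 15.8, 10.5, 55.2 and 33.2 CPM in CKO. Its low libraries were the 4 earlier PTX libraries, and the dates within PTX did not overlap (5.81 ± 0.73, edgeR adjusted p 0.000125). Nkg7 was low in those libraries too, but also in PTX fl/fl replicate 4 (1.73 CPM), which had the highest Ltb value (59.7 CPM). Tnfsf14 was at 0 to 2.11 CPM in the earlier and 3.25 to 35.6 CPM in the later PTX libraries (6.55 ± 0.94, adjusted p 0.000553), and at 7.73 to 36.7 CPM after vehicle. Neither ligand passed between PTX and vehicle in edgeR, with Ltb at -0.36 ± 1.28 in fl/fl and -0.78 ± 1.29 in CKO. With limma-voom Ltb passed in both, at -3.83 (adjusted p 0.00104) and -4.98 (adjusted p 0.0198), beside 5283 and 2686 of all genes. Without the earlier PTX libraries the edgeR estimates of Ltb were 0.56 and 0.19.

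**Figure D4:**
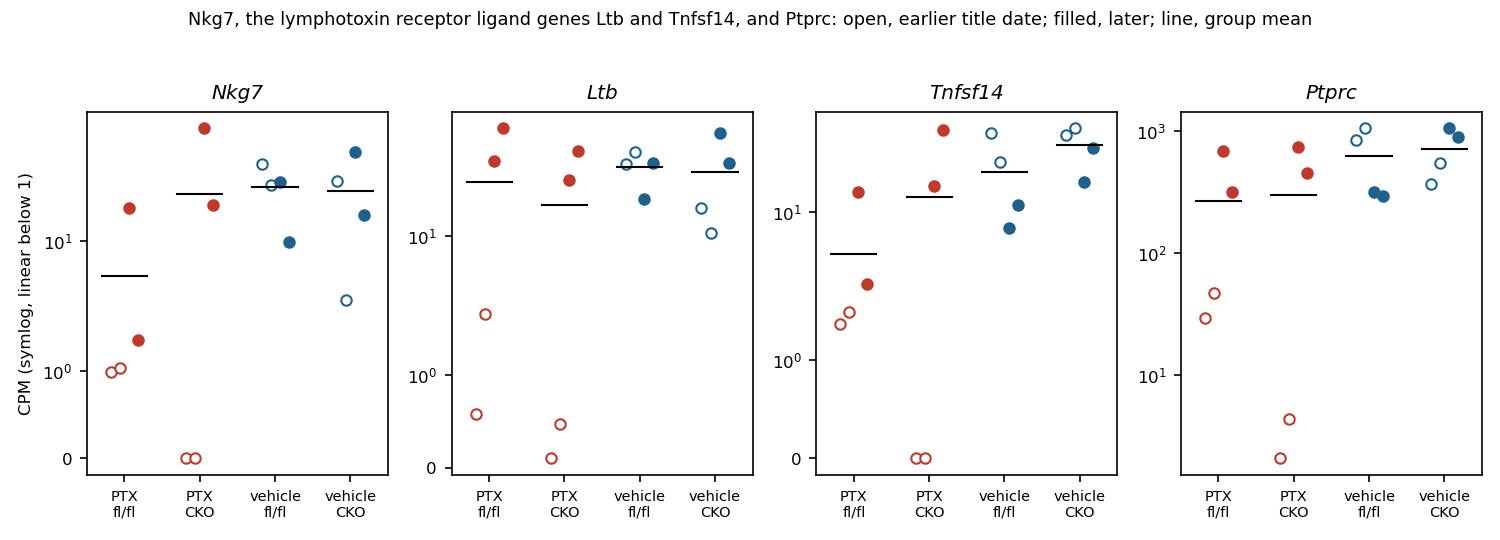
CPM of Nkg7, of the ligand genes Ltb and Tnfsf14 and of Ptprc in each library by group, on axes that are logarithmic above 1 CPM and linear below and that differ between panels. Open points are libraries of the earlier title date, filled points those of the later date, and lines are group means. In all 4 genes the earlier PTX libraries lay below the later ones, with Nkg7 at 0 to 1.05 against 1.73 to 72.9 CPM.

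Ltb and the T cell genes were high together in some libraries and not in others. PTX fl/fl replicate 4 was the highest of the 16 for Ltb (59.7 CPM), Cd3d (9.74 CPM) and Lck (16.7 CPM). PTX CKO replicate 4 had 345 Ltb counts and no count for any CD3 chain or for Lck, with 157 for Nkg7 and 29 for Cd79a. Vehicle CKO replicate 1 had 141 Ltb counts, no CD3 count and 1 Lck count, beside 254 for Nkg7. PTX CKO replicate 2 had 47 Lck counts and 5 Ltb counts. Over the 8 vehicle libraries, 6 genes were correlated with Ltb on the log2(CPM + 1) scale by exact permutation, and none passed after Benjamini-Hochberg adjustment over the 6. With 8 libraries a relation of moderate size could be missed. By Pearson r the highest was Nkg7 (Pearson r = 0.593, p = 0.120, adjusted 0.388; Spearman rho = 0.310, p = 0.462, adjusted 0.924), with r = 0.309 after leaving out the 2 libraries farthest from its median. The pan-leukocyte gene Ptprc was close to it (r = 0.586, p = 0.129, adjusted 0.388; rho = 0.524, p = 0.197, adjusted 0.924), with r = 0.863 after leaving out the 2 libraries farthest from its median. For Cd3d r was 0.278 (p = 0.507, adjusted 0.927; rho = 0.0714, p = 0.882, adjusted 0.935) and turned to -0.629 without the 2 libraries farthest from the Cd3d median. The 8 PTX libraries fell into clusters of 4 by date, so no relation was computed there, and the vehicle dates hold 4 libraries each, too few for a value within them.

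Relative to Ptprc, the sums of the 9 genes were not lower in the earlier PTX libraries, but the counts there were few. Ptprc was at 2.07 to 47.2 CPM there, at 314 to 743 CPM in the later PTX libraries and at 296 to 1063 CPM after vehicle (5.62 ± 0.36 between the PTX dates, edgeR adjusted p 5.94e-07). The 9 genes had 0.0874 to 1.07 counts per Ptprc count in the earlier PTX libraries, 0.0368 to 0.107 in the later ones and 0.0376 to 0.131 after vehicle. Of the earlier PTX libraries, CKO replicates 1 and 2 had only 21 and 46 Ptprc counts, so that their ratios are coarse. The ratio of 1.07 was that of CKO replicate 2, where 47 of the 49 T and NK cell gene counts were of Lck. Nkg7 alone had 0 to 0.0338, 0.00549 to 0.0981 and 0.00647 to 0.0885 counts per Ptprc count. Beside so few Ptprc counts, the 0 Nkg7 counts of both earlier CKO libraries say little about this ratio. Ltb had 0.0192 to 0.190 counts per Ptprc count over all 16 libraries. The part of leukocyte content in the Nkg7, Ltb and Tnfsf14 differences between the PTX dates was not tested.

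Other genes of T and NK cells were sparse too. Of 38 further T and NK cell genes 16 passed the filter, and 6 (Cd8b1, Icos, Ctla4, Trat1, Sh2d1a and Eomes) had no count in any library. Cd8a had 1 count and Cd4 504 counts in 8 libraries, while the granule protease gene Gzmb had 3135 counts in 13 libraries (these 3 were chosen after their values were seen). None of the 16 passed in the 4 group comparisons or the interaction (edgeR), and their median log2 fold change for PTX was -1.01 in fl/fl and -0.92 in CKO, beside -0.01 and 0.02 over all genes. Between the PTX dates Thy1, which neurons also express, fell (-2.51 ± 0.72, edgeR adjusted p 0.0477).

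Of 33 further B cell genes 31 were in the tables and 15 passed the filter. Pax5, the transcription factor that fixes B cell identity, Blk and Pou2af1 had no count in any library, and Cd22 had 1 (it was chosen after its value was seen). Ebf1, a transcription factor of early B cells that is also expressed outside the B lineage, was higher after PTX in fl/fl (2.32 ± 0.48, edgeR adjusted p 0.0133) and in CKO (2.17 ± 0.48, adjusted p 0.0266). It was at 190 ± 46.9 CPM (SD, n = 4) in the earlier and 129 ± 19.5 in the later PTX libraries, and at 20.3 ± 10.0 and 46.9 ± 9.55 in the earlier and later vehicle libraries. Without the 4 earlier PTX libraries neither call held: Ebf1 was at 1.75 ± 0.59 in fl/fl (edgeR adjusted p 0.346) and 2.05 ± 0.59 in CKO (adjusted p 0.406). That fit called only 4 of all genes in fl/fl and 0 in CKO, against 704 and 366 with those libraries kept. The loss of the calls is thus not particular to Ebf1. In the fit of all libraries the other 14 B cell genes did not pass for PTX in either genotype. Their median for PTX with Ebf1 included was -0.91 in fl/fl and -1.07 in CKO. Between the PTX dates Cd37, Plcg2, Cd74 and Btk rose, at 3.56 to 5.73 (edgeR), and myeloid cells express these 4 genes as well. Of the 15 genes 4 rose there and 0 fell, beside 7.13% of all genes that rose. The median of the 15 was 3.36, beside -0.16 over all genes.

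Of 17 genes of B cell precursors 9 passed the filter, and Vpreb2, Igll1, Rag1 and Dntt had no count in any library. None passed between the groups (edgeR), and 4 rose between the PTX dates, beside 7.13% of all genes. These were Bst1 (4.97 ± 0.69), Myb (6.16 ± 0.96), Cd93 (5.29 ± 0.92) and Erg (6.37 ± 1.28). They are also genes of myeloid or other progenitor and endothelial cells. Of 28 genes of antigen receptor signalling in the tables, kinases, adaptors and phosphatases downstream of the T and B cell receptors, 24 passed the filter. None of them passed between the groups (edgeR), with medians of -1.04 and -0.91 for PTX. Between the PTX dates 10 rose, beside 7.13% of all genes, and 0 fell, with a median of 2.46 over the 24. Among the 10 were Ptpn6 (5.24 ± 0.62) and Vav1 (5.05 ± 0.61). The lists overlap, so some rising genes are counted more than once. Btk and Plcg2 are also in the B cell list, and Ptprc and Vav1 are also in the pan-leukocyte list. All 15 pan-leukocyte genes (median 5.03) and all 19 neutrophil genes (median 5.56) rose between the PTX dates, and 5 of 18 sensory neuron genes fell. Of all genes 8.93% passed there in either direction. The part of neutrophil and other leukocyte RNA in these differences was not tested.

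Of 11 genes of the lymphotoxin and LIGHT pathway 10 passed the filter, all but Lta. Ltbr was lower after PTX in fl/fl (-2.15 ± 0.52, edgeR adjusted p 0.0273) and was at -1.50 ± 0.51 in CKO (adjusted p 0.120). It was at 5.88 to 23.3 CPM in the earlier and 12.1 to 28.4 in the later PTX libraries, and at 42.4 to 98.9 and 32.3 to 48.2 in the earlier and later vehicle libraries. Without the 4 earlier PTX libraries the fl/fl call was lost (-1.80 ± 0.59, edgeR adjusted p 0.319). That fit called only 4 of all genes in fl/fl, against 704 with those libraries kept. Between the PTX dates 7 of the 10 rose, beside 7.13% of all genes. Among the 7 were Nfkb2, a subunit of the non-canonical NF-kB arm (4.17 ± 0.30, edgeR adjusted p 1.10e-06), and the tumour necrosis factor receptor genes Tnfrsf1b (3.86 ± 0.35) and Tnfrsf1a (2.86 ± 0.30).

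Over the 16 libraries the genes whose log2(CPM + 1) was most like that of the 6 summed T and NK cell genes were Apobr (Pearson r = 0.946), Prg2 (0.933), Asprv1 (0.931), Fosl2 (0.929) and Hsd11b1 (0.928), with Spearman rho from 0.747 to 0.850. Prg2 encodes the major basic protein of eosinophil granules, and its CPM ran from 0.984 to 1551. For the 3 summed B cell genes they were Ect2 (r = 0.899), Sfmbt2 (0.899), Myl2 (0.863), Ly9 (0.848), a surface receptor of lymphocytes, and Cwc25 (0.841). These values describe 16 libraries that differ in depth and title date, the earlier PTX libraries being low for both sums. The values were ranked over all genes, so no p is given.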

How the data were processed

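Reads of 50 bases, single-end, from a stranded poly(A) library preparation were aligned with TopHat2 to mm9 and counted per gene with HTSeq, per the submitters' processing notes, which give no versions. The authors deposited raw, unnormalized counts for each gene in 1 table per library. Assigned counts were 32.9% to 43.5% of all counted alignments in a library, and the rest (no feature, not unique or ambiguous) stayed out of library sizes. The strand setting is not given in the sources used here.

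Libraries were grouped by their treatment and genotype labels. Counts were divided by library sizes scaled with TMM to give CPM. Genes were filtered with filterByExpr (14200 of 22609 kept) and tested with the quasi-likelihood F test of edgeR 4.0.16 in R 4.3.3, two-sided, at a threshold of 0.05 after adjusting by Benjamini-Hochberg across the 14200 genes. The group comparisons used 4 group means (12 residual degrees of freedom), the date comparisons 8 means of group and date (8 residual degrees of freedom). Each standard error was the fold change over the root of its F statistic. Intervals of count ratios and limits for 0 counts (3 counts) cover counting error only. Groups were also screened for an outlying library by the gap to the nearest of the others over the range (critical value 0.829 for 4 libraries). Among the 24 pairs of libraries within groups none was identical, with chi-square per degree of freedom of at least 19.5.

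The members and the gene lists were chosen with earlier results of these data known. Genes named beside the members were the receptor, its ligands, Scn10a, Ptprc and Scn4a, of each list up to 4 called genes with the smallest adjusted p or the 2 most abundant, and the 5 genes most like each member sum. Only some of these are given, and a few are not reported here.

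Replicate numbers come from the labels. Between CKO and fl/fl under PTX, deviations of libraries with the same number correlated at 0.23 to 0.48 in all 4 pairs, which share a title date, and a replicate block called 0 genes there, as did the fit without it.

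Tried as alternatives were scaling by RLE or upper quartile, no filter or a filter of 5 CPM in 4 libraries, DESeq2 1.42.0, limma-voom (limma 3.58.1), a replicate or title date block, the compared groups alone, each library left out, the PTX comparisons without the earlier PTX date and, added after seeing the data, date comparisons with the genotypes pooled. The code was tested on simulated data.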

Additional observations from a re-analysis of the deposited data

Results flagged for a closer look

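A library stood far from the other 3 of its group in 10 of the 30 combinations of gene and group screened on the log2(CPM + 1) scale. The rate of about 1 in 20 flagged by chance is for continuous, normally spread values and does not hold for these counts. Most of the flagged groups had counts in 1 library alone, which flags that library whatever its count. The number flagged therefore cannot show an excess of outlying libraries. PTX CKO replicate 3 stood out for Cd3d (3.09 CPM), Cd3g (0.618 CPM) and Cd79b (2.37 CPM), and it also had the highest Nkg7 value of all libraries. PTX fl/fl replicate 3 stood out for Nkg7 (17.9 CPM, the others at 0.996 to 1.73) and for Cd3g (0.102 CPM, 1 count). Vehicle CKO replicate 3 held the only Cd3e counts (1.02 CPM), and vehicle CKO replicate 4 stood out for Lck (3.64 CPM). Single counts set apart vehicle fl/fl replicate 4 for Cd3g (0.0830 CPM), PTX fl/fl replicate 2 for Cd79b (0.0878 CPM) and PTX fl/fl replicate 1 for Ms4a1 (0.0830 CPM).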

How the results depend on the processing

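The call of Nkg7 between the PTX title dates held under all 6 alternatives run for it (adjusted p 2.46e-09 to 0.0106) and with each of the 16 libraries left out (6.29 to 7.97, edgeR adjusted p 0.00129 to 0.0244). The count of 0 lymphocyte genes called in the 5 group comparisons held with each library left out and under every alternative run but 1. Limma-voom with quality weights called 1 (Nkg7) for PTX in fl/fl and 1 in CKO, beside 5283 and 2686 of all genes. Depth limits the remaining genes: Cd3e, Cd3g, Cd2 and Ms4a1 were left out by the filter on low counts and did not pass in a fit without it, and Cd79b rested on 6 libraries.

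Replicate numbers were fitted as a block. With the replicate block 361 genes were called for PTX in fl/fl (704 without), 126 in CKO (366 without), 1 for CKO against fl/fl under vehicle (3 without) and 0 for the interaction (1 without), and no lymphocyte gene was called. Deviations of libraries with the same number correlated at -0.20 to -0.17 for PTX in fl/fl, -0.01 to 0.11 in CKO and -0.05 to 0.02 between genotypes under vehicle, so the numbers do not pair those libraries. The block changed no other call.

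The number of all genes called moved more than that of the lymphocyte genes. Without the 4 earlier PTX libraries it was 4 in fl/fl, 0 in CKO and 0 for the interaction. DESeq2 called 1517, 1341, 10 (CKO against fl/fl under PTX, 0 in edgeR), 83 (under vehicle), 50 (interaction), 1939 (PTX dates, 1268 in edgeR) and 433 (vehicle dates, 23 in edgeR). Limma-voom called 5283 and 2686 for PTX and 0 for genotype under vehicle and the interaction. With only the compared groups 159 were called for PTX in CKO and 0 for genotype under vehicle, and with a title date block 1 for the latter. The interaction had 0 with RLE or upper-quartile scaling. The vehicle dates had 37 with upper-quartile scaling, 56 without a filter and 15 with genotypes pooled. With each library left out the count was 177 to 845 for PTX in fl/fl (lowest without PTX fl/fl replicate 1), 30 to 549 in CKO (lowest without PTX CKO replicate 2), 1 to 15 for genotype under vehicle, 0 to 4 for the interaction (highest of both without vehicle CKO replicate 4), 765 to 1474 for the PTX dates (lowest without PTX fl/fl replicate 1) and 5 to 131 for the vehicle dates (highest without vehicle CKO replicate 1).

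Directions turned for log2 fold changes that had passed no test. Without the earlier PTX libraries they were 0.41 (Cd3d), 0.51 (Lck) and 0.56 (Ltb) in fl/fl and -2.14 (Lck), 0.93 (Nkg7), 0.93 (Cd79a) and 0.19 (Ltb) in CKO. For CKO against fl/fl under PTX, Nkg7 was at -2.45 and Cd79a at -1.81 in limma-voom, and Nkg7 at -0.41 with a title date block. Under vehicle Cd3d was at -0.46 in limma-voom and -1.25 with the replicate block. With genotypes pooled Lck was at 1.04 between the PTX dates. The cause of these turns was not tested.

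With each library left out in turn, the sign of the following estimates turned in 1 to 5 of the 16 fits. For PTX in fl/fl Cd3d ran from -1.79 to 0.0355, Lck from -1.17 to 0.48 and Ltb from -1.31 to 0.0484. For PTX in CKO Lck ran from -2.37 to 4.63, Nkg7 from -1.94 to 0.52 and Cd79a from -2.47 to 0.41. For genotype under PTX Cd79a ran from -0.97 to 1.91, Cd79b from -1.49 to 5.58 and Ltb from -1.51 to 0.40. Under vehicle Cd3d ran from -0.47 to 0.51, Cd79b from -0.71 to 0.90, Nkg7 from -0.70 to 0.26 and Ltb from -0.66 to 0.17. Between the PTX dates Lck ran from -2.82 to 1.43, Cd79a from -0.0812 to 3.27 and Cd79b from -1.08 to 3.28. Between the vehicle dates Cd3d ran from -1.31 to 3.77, Lck from -1.22 to 6.94 and Nkg7 from -0.40 to 1.19.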
